A study of Mus musculus with 18 samples.

Results

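The early response to tunicamycin was described in mouse B16 F10.9-4 melanoma cells that express LIP, by setting the 3 arrays of cells given doxycycline and then tunicamycin for 5 h against the 3 arrays of cells given doxycycline alone. These 6 arrays were chosen by their labels, out of 18 in the series. All groups are of the same cell line, in which doxycycline pretreatment induces LIP. With doxycycline, cells were taken after 5 or 12 h of tunicamycin and at 0 h, and without doxycycline after 5 h of tunicamycin and, as vehicle, at 0 h. Tunicamycin for 12 h without doxycycline makes up the remaining 3 arrays, which enter the fit only through the shared spread. Each group holds 3 arrays, 1 from each of 3 independent experiments. Arrays with the same replicate number are called 1 experiment here, a pairing that the titles do not state. The labels give neither the tunicamycin dose nor the length of the doxycycline pretreatment. No doxycycline array at 5 h was used here, so tunicamycin and 5 more hours of culture cannot be told apart. No doxycycline array without the LIP construct was used here either, so LIP and doxycycline itself cannot be told apart.

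Tunicamycin blocks the first step of N-linked glycosylation, so that glycoproteins misfold in the endoplasmic reticulum (ER). Misfolding activates the unfolded protein response through the sensors PERK, IRE1 and ATF6. PERK phosphorylates eIF2α, which slows translation and favours synthesis of the transcription factor ATF4. ATF4 in turn drives genes of amino acid supply and the stress factor CHOP. IRE1 splices the mRNA of XBP1 and ATF6 is cleaved to an active factor, and both switch on chaperones and the machinery of ER-associated degradation (ERAD). LIP is the short isoform of C/EBPβ (gene Cebpb). It keeps the DNA-binding and dimerisation region but is missing nearly all of the activating region of the long isoform, and it can pair with bZIP partners such as CHOP and ATF4.

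Levels are the authors' log2 intensities after RMA, a summary of the probes of each probe set across arrays, and each gene is given by its brightest probe set. Changes are differences of group means on this log2 scale, given as change ± standard error (SE) with 3 arrays a group. Calls rest on limma's adjusted p over 19938 genes, with a threshold of 0.05, and "rose" and "fell" are used only of genes that passed it. The number of arrays limits the precision. Arrays of 1 group correlated at 0.993 to 0.998 across all 35557 probe sets. Levels of the Cebpb probe set were 11.31, 11.36 and 11.32 in the cells with doxycycline and tunicamycin, 11.02, 11.27 and 11.24 with doxycycline alone, 9.47, 9.60 and 9.48 with tunicamycin alone and 9.26, 9.26 and 9.48 with vehicle. Both groups given doxycycline lay above both groups without it. The probe set does not tell LIP from the long isoform, and how fully it reads the LIP transgene is not known from the files. In this probe set 5 h of tunicamycin changed Cebpb under doxycycline by 0.15 ± 0.071 (adjusted p = 0.221), which did not pass. Of 23 melanocyte lineage genes, 20 lay above the 95th percentile of olfactory and vomeronasal receptor genes (6.07), which stand in for silent genes. Kit, Ednrb and Oca2 lay below it. Of 19 markers of other cell types, 8 lay above it, led by Des and Krt8, and 0 of the 19 passed the test. The summed level of these 19 markers was 111.31 to 113.28 with tunicamycin and 112.08 to 113.15 without.

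After 5 h of tunicamycin, 2413 genes passed the test in LIP-expressing cells, 12.1% of the genes tested. Of these, 1304 were higher (6.54%) and 1109 lower (5.56%). Most changes were small: 28 genes (0.14%) changed by at least 2-fold, 27 upwards (0.135%) and 1 downwards (0.00502%). Of the 2413 genes, 2404 moved the same way in all 3 experiments and in 2389 the groups did not overlap. Both counts follow largely from passing the test. The share of all genes that moved the same way in the 3 experiments was not counted. Groups did not overlap in 14.1% of all genes in the upward and 13.9% in the downward direction. The median change of all genes was -0.0072. The count of lower genes dropped to 657 without the doxycycline and tunicamycin array of experiment 2 and to 723 without the doxycycline array of experiment 3.

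The largest rise was that of Id1, an inhibitor of basic helix-loop-helix factors and a classical BMP target. Its level was 10.31, 10.19 and 10.09 with tunicamycin, against 8.63, 8.48 and 8.73 without. The groups lay more than 1 log2 unit apart at their nearest arrays, and the change was 1.59 ± 0.076 (adjusted p = 2.37e-10), a 3-fold rise. Ccn2, a secreted matricellular protein once called CTGF, had 11.84, 11.66 and 11.48 with tunicamycin, against 10.12, 10.08 and 10.12 without. The groups did not overlap, and the rise was 1.55 ± 0.091 (adjusted p = 2.67e-09). Unc5b, a netrin receptor, had 9.42, 9.35 and 9.47 with tunicamycin, against 8.15, 7.90 and 8.08 without, a rise of 1.37 ± 0.064 (adjusted p = 2.37e-10). The groups did not overlap. Mfsd2a, a transporter of lysophospholipids, had 8.26, 8.19 and 8.17 with tunicamycin, against 6.87, 6.98 and 7.19 without, a rise of 1.19 ± 0.073 (adjusted p = 4.83e-09). Again every tunicamycin array lay above every doxycycline array. The other 8 of the 12 genes with the largest rises were Id3, Slc30a1, Mt2, Ddit3, Itga5, Slc7a11, Chac1 and Smad7, which are described below with their groups.

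Of the falls only the largest reached 2-fold. Slc39a10, the zinc importer ZIP10, had 8.64, 8.61 and 8.69 with tunicamycin, against 10.53, 10.40 and 10.57 without. This was the largest change in either direction among the genes named, -1.85 ± 0.075 (adjusted p = 4.75e-11), a 3.62-fold fall with no overlap. Klf12, a zinc finger repressor, had 7.94, 7.50 and 8.08 with tunicamycin, against 8.75, 8.71 and 8.84 without, and fell by 0.93 ± 0.11 (adjusted p = 1.25e-05). Its array of experiment 2 was the lowest of the tunicamycin arrays, and the groups did not overlap. Ccng2, cyclin G2, an atypical cyclin of arrested cells, had 6.99, 6.84 and 6.94 with tunicamycin, against 7.82, 7.77 and 7.90 without, a change of -0.91 ± 0.078 (adjusted p = 3.61e-07). Klhl24, a Kelch-like adaptor of the CUL3 ubiquitin ligase, had 9.38, 9.20 and 9.30 with tunicamycin, against 10.12, 10.18 and 10.22 without, a change of -0.88 ± 0.072 (adjusted p = 2.22e-07). Neither gene's groups overlapped. Further falls, all without overlap, were those of Rtl9 (-0.82), the sodium channel gene Scn1a (-0.78), Map2k6 (-0.76), which encodes the p38 kinase activator MKK6, and Nrep (-0.75). The clock output factor Dbp (-0.67) and Dscc1 (-0.66), part of a clamp loader used in sister chromatid cohesion, fell as well.

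**Figure D1:**
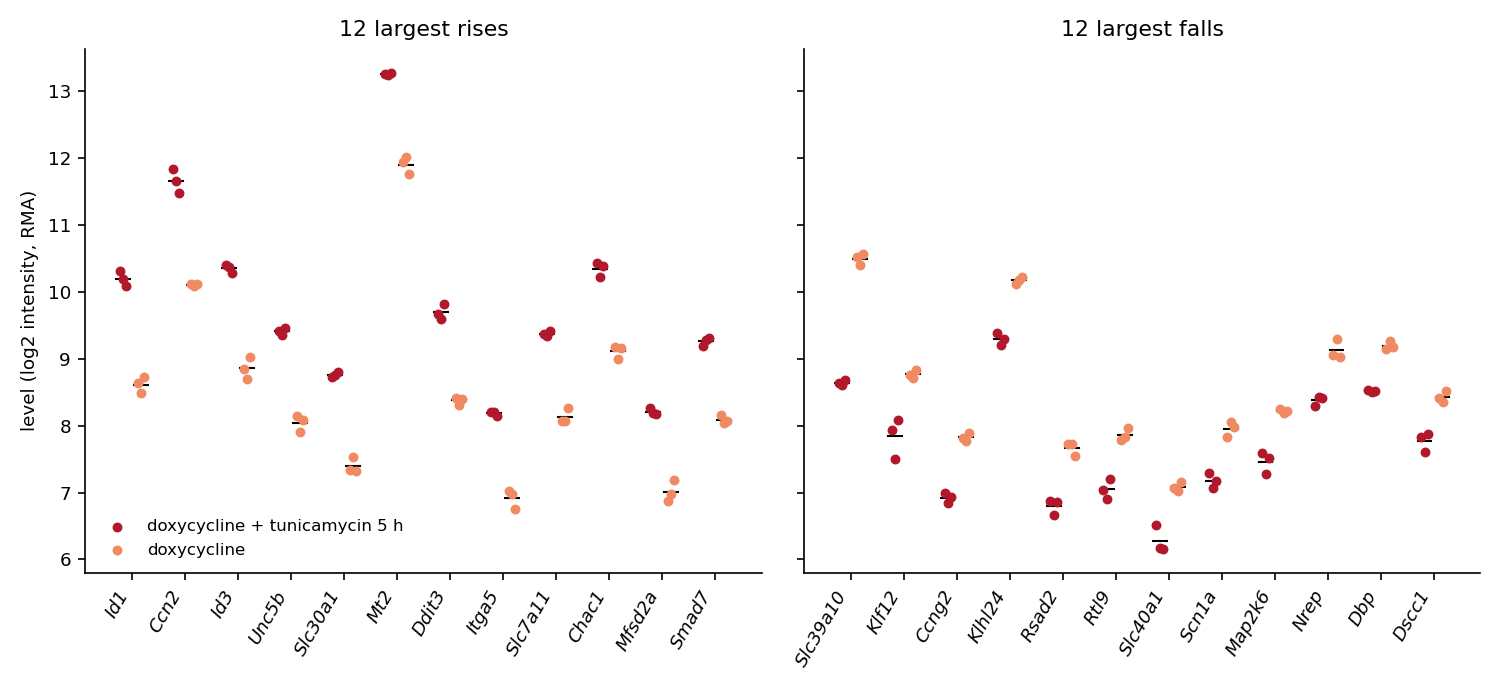
Levels (log2 intensity after RMA, vertical axis) of the 12 genes with the largest rises (left) and the 12 with the largest falls (right) in LIP-expressing cells. Points are single arrays, 3 with doxycycline and tunicamycin for 5 h (dark red) and 3 with doxycycline alone (orange), and bars are means. In all 24 genes the groups did not overlap, which follows largely from how these genes were picked. Over all genes the groups did not overlap in 14.1% upwards and 13.9% downwards. Mt2 reached 13.26 on average with tunicamycin.

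Genes of the PERK arm were higher after 5 h. Of 20 measured targets and factors of PERK, ATF4 and CHOP, 12 rose and 0 fell, and the median change of the list was 0.28. Ddit3, which encodes CHOP, had 9.67, 9.60 and 9.82 with tunicamycin, against 8.42, 8.31 and 8.40 without. The groups were well separated and the rise was 1.32 ± 0.084 (adjusted p = 7.19e-09). Chac1, an enzyme that degrades glutathione and a target of ATF4 and CHOP, had 10.44, 10.23 and 10.38 with tunicamycin, against 9.18, 8.99 and 9.16 without, a rise of 1.24 ± 0.067 (adjusted p = 9.97e-10). Trib3, a pseudokinase that restrains ATF4 and CHOP, had 8.86, 8.61 and 8.91 with tunicamycin, against 7.93, 7.88 and 8.06 without, a rise of 0.83 ± 0.091 (adjusted p = 5.67e-06). Neither gene showed overlap. Ppp1r15a, the phosphatase subunit GADD34 that reverses eIF2α phosphorylation, rose by 0.74 ± 0.066 (adjusted p = 6.07e-07), and the mRNA of Atf4 itself by 0.29 ± 0.06 (adjusted p = 0.00322). Atf3, another bZIP stress factor, had 9.24, 8.88 and 9.04 with tunicamycin, against 8.81, 8.75 and 8.84 without, a change of 0.25 ± 0.081 that was just past the threshold (adjusted p = 0.0482). Its call was lost in 9 of 18 alternative settings.

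Genes of amino acid supply, which ATF4 controls, rose in part. Of 22 genes of amino acid synthesis and transport, 8 rose and 0 fell, with a median change of 0.13. Without experiment 3 the count of rising members was 5. Of the 8, 7 are transporters or transporter subunits, and the share of transporters among the 22 was not counted. Slc7a11, the cystine-glutamate exchanger xCT, had 9.37, 9.34 and 9.42 with tunicamycin, against 8.07, 8.06 and 8.27 without, and rose by 1.24 ± 0.07 (adjusted p = 1.61e-09) with no overlap. Slc1a4, a carrier of alanine, serine and cysteine, rose by 0.77 ± 0.1 (adjusted p = 4.46e-05). Cth, which makes cysteine from cystathionine, rose by 0.43 ± 0.063 (adjusted p = 0.000113), and the glycine carrier Slc6a9 by 0.34 ± 0.05 (adjusted p = 0.000113). Of 18 aminoacyl-tRNA synthetases, which charge tRNAs, 2 passed (11.1%, against 12.1% of all genes), Rars (0.27) and Tars (0.23), and both calls were lost without experiment 1 and without experiment 3.

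Promoter windows from RefSeq (build GRCm38.p6, 250 bases before to 50 after the gene's start, on the gene's strand) are shown for the genes of these 24 whose window holds an ATF4-C/EBP composite element, since CHOP, ATF4 and C/EBPβ can all bind that kind of site. The letters searched were TGATGNAA on both strands, and capitals mark the matches. Windows were found for 9 of the 12 rising genes and 8 of the 12 falling ones. The letters were present in 2 of the 9 and 1 of the 8, and in 4.51% of all 27025 genes with a window. Slc7a11 (chr3:50443564-50443863, minus strand) holds 2 matches, at -66 and -47 relative to the start site, and Chac1 (chr2:119350992-119351291, plus strand) holds 1 at -193. The falling gene with a match was Rtl9 (chrX:143099344-143099643, plus strand), with its match at -56. A match is a description of the letters and not evidence of binding.
Slc7a11: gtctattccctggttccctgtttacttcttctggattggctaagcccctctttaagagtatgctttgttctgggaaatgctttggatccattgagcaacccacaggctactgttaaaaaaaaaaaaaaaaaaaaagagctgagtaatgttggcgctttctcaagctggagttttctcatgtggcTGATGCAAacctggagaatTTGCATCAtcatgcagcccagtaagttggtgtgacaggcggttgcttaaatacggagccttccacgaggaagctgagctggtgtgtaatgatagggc
Chac1: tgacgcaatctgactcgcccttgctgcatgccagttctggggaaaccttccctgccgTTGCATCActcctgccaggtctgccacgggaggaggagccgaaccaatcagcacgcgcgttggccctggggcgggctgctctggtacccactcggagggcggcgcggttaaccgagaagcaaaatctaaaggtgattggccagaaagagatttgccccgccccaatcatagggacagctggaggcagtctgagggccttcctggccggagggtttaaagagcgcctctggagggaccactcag
Rtl9: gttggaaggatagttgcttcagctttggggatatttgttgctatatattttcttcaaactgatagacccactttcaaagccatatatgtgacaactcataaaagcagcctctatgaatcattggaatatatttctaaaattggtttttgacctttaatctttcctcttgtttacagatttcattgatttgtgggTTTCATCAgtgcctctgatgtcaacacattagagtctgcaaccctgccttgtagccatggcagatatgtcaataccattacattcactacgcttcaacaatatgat

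Other letters searched on both strands were TGACGTGG, bound by XBP1 or ATF6, and the E box CACGTG. The first was in 0.714% of all genes and the second in 8.09%, and neither was in the 9 rising or the 8 falling genes. The C/EBP half-site pair TTGCNNAA was in 12.2% of all genes, in Mt2 and Slc7a11 among the 9 rising genes, and in 0 of the 8 falling ones. The ER stress element was in 0.137% of all genes and in 0 of these windows. None of the motifs searched contains another.

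Of 33 ER chaperones, oxidoreductases and ERAD genes, 10 rose (30.3%, against 6.54% of all genes), 1 fell (3.03%, against 5.56%) and 22 did not pass. The median change was 0.058. The largest rise was in Herpud1, an ERAD scaffold, with 11.09, 11.00 and 11.18 with tunicamycin, against 10.04, 9.93 and 10.09 without, a change of 1.07 ± 0.06 (adjusted p = 1.61e-09). Dnajb9, the BiP co-chaperone ERdj4, had 10.62, 10.59 and 10.81 with tunicamycin, against 9.76, 9.94 and 9.74 without, a rise of 0.86 ± 0.079 (adjusted p = 7.55e-07). Neither gene's groups overlapped. Wfs1, an ER membrane protein, rose by 0.39 ± 0.065 (adjusted p = 0.000428) and Selenos, a selenoprotein of the ERAD machinery, by 0.34 ± 0.078 (adjusted p = 0.00639). Hspa5, the major ER chaperone BiP, had 12.84, 12.83 and 12.88 with tunicamycin, against 12.64, 12.72 and 12.70 without, a change of only 0.16 ± 0.05 (adjusted p = 0.039). Its groups did not overlap, but the call was lost in 11 of 18 alternatives, among them setting array medians equal (adjusted p = 0.0848). The one member that fell was Edem2, a mannosidase-like ERAD factor (-0.18 ± 0.056, adjusted p = 0.0387). The number of rising members was 6 without either array of experiment 1 and 4 without experiment 1 or experiment 3.

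Among 14 genes listed as sensors and factors of the response, 2 rose (14.3%, against 6.54% of all genes) and 1 fell (7.14%, against 5.56%). Ern1, which encodes the sensor IRE1α, rose by 0.53 ± 0.059 (adjusted p = 7.42e-06). Xbp1, the target of that sensor, had 11.57, 11.47 and 11.56 with tunicamycin, against 11.06, 10.96 and 11.01 without. It rose by 0.52 ± 0.062 (adjusted p = 1.78e-05) with no overlap. Spliced and unspliced Xbp1 are not told apart by these values. Eif2ak2, the RNA-activated kinase PKR, was on this list but is not one of the sensors PERK, IRE1 and ATF6. It fell by 0.34 ± 0.086 (adjusted p = 0.0113), a call lost in 4 of 18 alternatives. Of 31 genes of N-glycosylation, which tunicamycin blocks, and hexosamine supply, 2 rose (6.45%, against 6.54% of all genes), the glucosyltransferase Alg5 (0.41) and the mannosyltransferase Alg12 (0.28), and Alg14 was lower (-0.17, adjusted p = 0.0175). The call of Alg12 was lost in 5 of 18 alternatives and that of Alg14 in 8. Of 32 genes of the translocon and secretory pathway, 2 were higher (6.25%, against 6.54% of all genes). These were coat genes of COPII vesicles, Sec24d (0.27) and Sec24a (0.19), with calls lost in 2 and 3 of 18 alternatives. Another coat gene, Sec23a, was lower (-0.14, adjusted p = 0.0409), with its call lost in 10 of 18 alternatives. Of 16 cytosolic heat shock chaperones 0 rose and 1 fell (6.25%, against 5.56% of all genes), Hspa4l (-0.33, adjusted p = 0.00842).

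Genes of zinc handling included some of the largest changes in both directions. Of 21 zinc transporters and metallothioneins, 6 rose (28.6%, against 6.54% of all genes) and 1 fell (4.76%, against 5.56%). Besides the fall of the importer Slc39a10, the exporter gene Slc30a1, which encodes ZnT1, had 8.73, 8.75 and 8.81 with tunicamycin, against 7.34, 7.53 and 7.32 without. Its rise was 1.37 ± 0.08 (adjusted p = 2.64e-09) with no overlap. Mt2, a metallothionein that binds zinc in the cytosol, had 13.26, 13.25 and 13.28 with tunicamycin, against 11.94, 12.02 and 11.76 without, a rise of 1.36 ± 0.065 (adjusted p = 2.37e-10). The 3 tunicamycin arrays lay within 0.1 log2 units of each other. Mt1, the neighbouring metallothionein, had 12.67, 12.60 and 12.49 with tunicamycin, against 12.06, 11.99 and 12.05 without, a smaller rise of 0.55 ± 0.053 (adjusted p = 1.35e-06). Mt1 and Mt2 are close paralogs, and how far their probes share signal was not tested. The importer gene Slc39a14, whose product also carries iron, rose by 0.33 ± 0.066 (adjusted p = 0.0024). The gene of the zinc-sensing factor Mtf1 changed by -0.033 (adjusted p = 0.835).

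Metallothionein and ZnT1 genes are textbook targets of the metal-sensing factor MTF1, so the windows were searched for 2 forms of the metal response element, TGCACNC and TGCGCNC. The first was present in 3 of the 9 rising genes with a window (Mfsd2a, Mt2, Slc30a1), in 1 of the 8 falling ones (Dbp) and in 14.2% of all genes. The second was present in 4 of the 9 (Ddit3, Id3, Mt2, Slc30a1), in 2 of the 8 (Ccng2, Map2k6) and in 17% of all genes. Both forms were present in Mt2 and Slc30a1, whose windows are shown for that reason and were chosen after their values were seen. Mt2 (chr8:94172368-94172667, plus strand) holds 4 matches and Slc30a1 (chr1:191906531-191906830, plus strand) holds 2. Capitals mark a match to either form on either strand.
Mt2: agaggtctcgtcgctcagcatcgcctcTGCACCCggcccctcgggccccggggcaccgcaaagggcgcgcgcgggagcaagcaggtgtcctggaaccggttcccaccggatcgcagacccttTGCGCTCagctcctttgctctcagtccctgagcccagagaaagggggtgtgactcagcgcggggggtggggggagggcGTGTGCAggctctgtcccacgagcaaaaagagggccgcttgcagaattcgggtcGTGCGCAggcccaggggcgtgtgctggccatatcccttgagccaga
Slc30a1: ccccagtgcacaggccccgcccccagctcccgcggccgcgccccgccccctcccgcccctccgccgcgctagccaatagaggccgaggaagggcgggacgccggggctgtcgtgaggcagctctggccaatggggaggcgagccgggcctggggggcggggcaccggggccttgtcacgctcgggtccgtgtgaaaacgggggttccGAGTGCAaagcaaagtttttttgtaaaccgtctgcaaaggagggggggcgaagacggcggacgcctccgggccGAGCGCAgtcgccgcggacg

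Target and feedback genes of BMP and TGF-β signalling rose in part. These pathways signal through SMAD proteins, which switch on ID genes and the inhibitory SMADs 6 and 7 as feedback. Of 20 genes of this kind, 13 rose and 0 fell, with a median change of 0.25. Id3, a relative of Id1, had 10.40, 10.37 and 10.29 with tunicamycin, against 8.84, 8.70 and 9.03 without, a rise of 1.49 ± 0.075 (adjusted p = 4.63e-10). Smad7, an inhibitory SMAD, had 9.19, 9.29 and 9.32 with tunicamycin, against 8.16, 8.04 and 8.06 without, a rise of 1.18 ± 0.062 (adjusted p = 8.43e-10). Smad9, a SMAD of the BMP branch, had 8.61, 8.63 and 8.64 with tunicamycin, against 7.66, 7.55 and 7.56 without, a rise of 1.04 ± 0.061 (adjusted p = 2.82e-09). In all 3 genes every tunicamycin array lay above every doxycycline array. The count of rising members was 9 to 13 with 1 array or 1 experiment left out.

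Immediate early genes and the feedback inhibitors of MAPK signalling were also higher. Of 27 such genes 17 rose and 0 fell, with a median change of 0.28, and the count was 10 without experiment 1. Fos, a subunit of AP-1, had 8.54, 8.35 and 8.20 with tunicamycin, against 7.50, 7.38 and 7.61 without, a rise of 0.86 ± 0.11 (adjusted p = 2.96e-05). Spry4, an inhibitor of receptor tyrosine kinase signalling, had 9.02, 8.68 and 8.59 with tunicamycin, against 8.03, 7.99 and 7.80 without, a rise of 0.83 ± 0.12 (adjusted p = 0.000151). The groups of both genes were apart, with the array of experiment 1 the highest of the tunicamycin arrays of each. Maff, a small MAF factor, rose by 0.81 ± 0.099 (adjusted p = 2.28e-05) and the zinc finger factor Egr1 by 0.73 ± 0.16 (adjusted p = 0.00425). Of the 3 NR4A orphan nuclear receptors, Nr4a3 rose by 0.86 ± 0.11 (adjusted p = 2.81e-05) and Nr4a1 by 0.24 ± 0.052 (adjusted p = 0.00379), while Nr4a2 changed by 0.16 and did not pass.

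Matrix and adhesion genes, many of them targets of the YAP and TEAD factors, rose in part. Of 35 measured, 11 rose (31.4%, against 6.54% of all genes), 2 fell (5.71%, against 5.56%) and 22 did not pass. The median change was 0.081. Itga5, which pairs with the integrin β1 subunit to form a fibronectin receptor, had 8.21, 8.20 and 8.15 with tunicamycin, against 7.02, 6.98 and 6.76 without. The tunicamycin arrays were within 0.1 log2 units of each other and the rise was 1.27 ± 0.11 (adjusted p = 3.3e-07). Thbs1, thrombospondin, rose by 0.86 ± 0.07 (adjusted p = 1.81e-07) and Ccn1, a relative of Ccn2, by 0.69 ± 0.068 (adjusted p = 1.76e-06). The integrin genes that fell were Itga2 (-0.25) and Itgb5 (-0.22), and 0 fell without experiment 3 or its doxycycline array and 1 without experiment 1 or the tunicamycin array of experiment 3.

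Mitotic genes fell almost as a whole, by small amounts. Of 32 measured genes of G2/M and mitosis, 31 fell, and the median change was -0.28; Ube2c, a ubiquitin-conjugating enzyme of the anaphase-promoting complex, was the only one that did not pass (-0.083, adjusted p = 0.369). Over all genes 5.56% fell, with a median change of -0.0072. The count of falling members was 18 without experiment 3. Cdc25c, the phosphatase that activates CDK1 at mitotic entry, had 9.27, 9.17 and 9.21 with tunicamycin, against 9.75, 9.72 and 9.75 without. Its groups lay apart and it changed by -0.52 ± 0.055 (adjusted p = 4.02e-06). Cenpf, a kinetochore protein, had 10.11, 10.00 and 10.06 with tunicamycin, against 10.53, 10.58 and 10.57 without, a change of -0.51 ± 0.058 (adjusted p = 9.43e-06). Ccnf, cyclin F, changed by -0.51 ± 0.075 (adjusted p = 0.000146), and Kif2c, a kinesin that takes microtubules apart, by -0.44 ± 0.048 (adjusted p = 6.49e-06).

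Of 29 measured genes of the G1/S transition and of DNA replication, 16 fell (55.2%, against 5.56% of all genes) and 1 rose (3.45%, against 6.54%). The median change was -0.21. The count of falling members was 10 without the doxycycline array of experiment 1 and 9 without the tunicamycin array of experiment 2. Without experiment 3 it was 3. The largest falls were in the E2F family repressor E2f8 (-0.44 ± 0.082, adjusted p = 0.00114), the activator E2f2 (-0.40 ± 0.083, adjusted p = 0.00269) and Gins1 (-0.40 ± 0.061, adjusted p = 0.000201), a subunit of the replicative helicase complex. Gins2, another subunit, had a change of -0.32 ± 0.059 (adjusted p = 0.00108). The member that rose was Ccnd1, cyclin D1 (0.25 ± 0.055, adjusted p = 0.00481). In bulk RNA a smaller share of cells in a cycle phase and less RNA of these genes per cell cannot be told apart.

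Genes linked to FOXO factors and growth restraint, among them Klf12, Ccng2 and Klhl24, fell in part. Of 22 measured, 7 fell (31.8%, against 5.56% of all genes) and 1 rose (4.55%, against 6.54%). The one that rose was Txnip, a thioredoxin-binding arrestin that limits glucose uptake, with a change of 0.64 ± 0.058 (adjusted p = 6.4e-07). Of 26 autophagy genes 7 fell (26.9%, against 5.56% of all genes) and 1 rose (3.85%, against 6.54%), with a median change of -0.094. The count of falling members was 3 or 4 without any 1 of the doxycycline arrays. It was 3 without the tunicamycin array of experiment 2 and 1 without experiment 3. Bnip3, a mitophagy receptor, had 8.91, 8.72 and 8.76 with tunicamycin, against 9.36, 9.53 and 9.39 without, a change of -0.63 ± 0.083 (adjusted p = 4.61e-05). Gabarapl1, an ATG8 family protein, changed by -0.35 ± 0.077 (adjusted p = 0.00508), Wipi1, a phosphoinositide-binding protein of forming autophagosomes, by -0.22 ± 0.048 (adjusted p = 0.00532), and Atg2a, a lipid transfer protein, by -0.20 ± 0.06 (adjusted p = 0.0346). The call of Atg2a was lost in 8 of 18 alternatives. The autophagy receptor gene Sqstm1 was the member that rose (0.18 ± 0.05, adjusted p = 0.0236).

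Cholesterol and fatty acid synthesis fell in part, with 10 of 24 genes lower and 0 higher and a median change of -0.13. The count of falling members was 5 or 6 without either array of experiment 1 or 2, and 3 without experiment 1 or 3. Fdft1, squalene synthase, had 11.39, 11.35 and 11.37 with tunicamycin, against 11.79, 11.77 and 11.76 without. The 3 arrays of each group were within 0.1 log2 units of each other, and the change was -0.40 ± 0.047 (adjusted p = 1.42e-05). The sterol carrier gene Stard4 changed by -0.32 ± 0.059 (adjusted p = 0.00104), Nsdhl, a sterol dehydrogenase, by -0.32 ± 0.064 (adjusted p = 0.00189), and Dhcr7, which completes cholesterol, by -0.27 ± 0.054 (adjusted p = 0.00233).

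**Figure D2:**
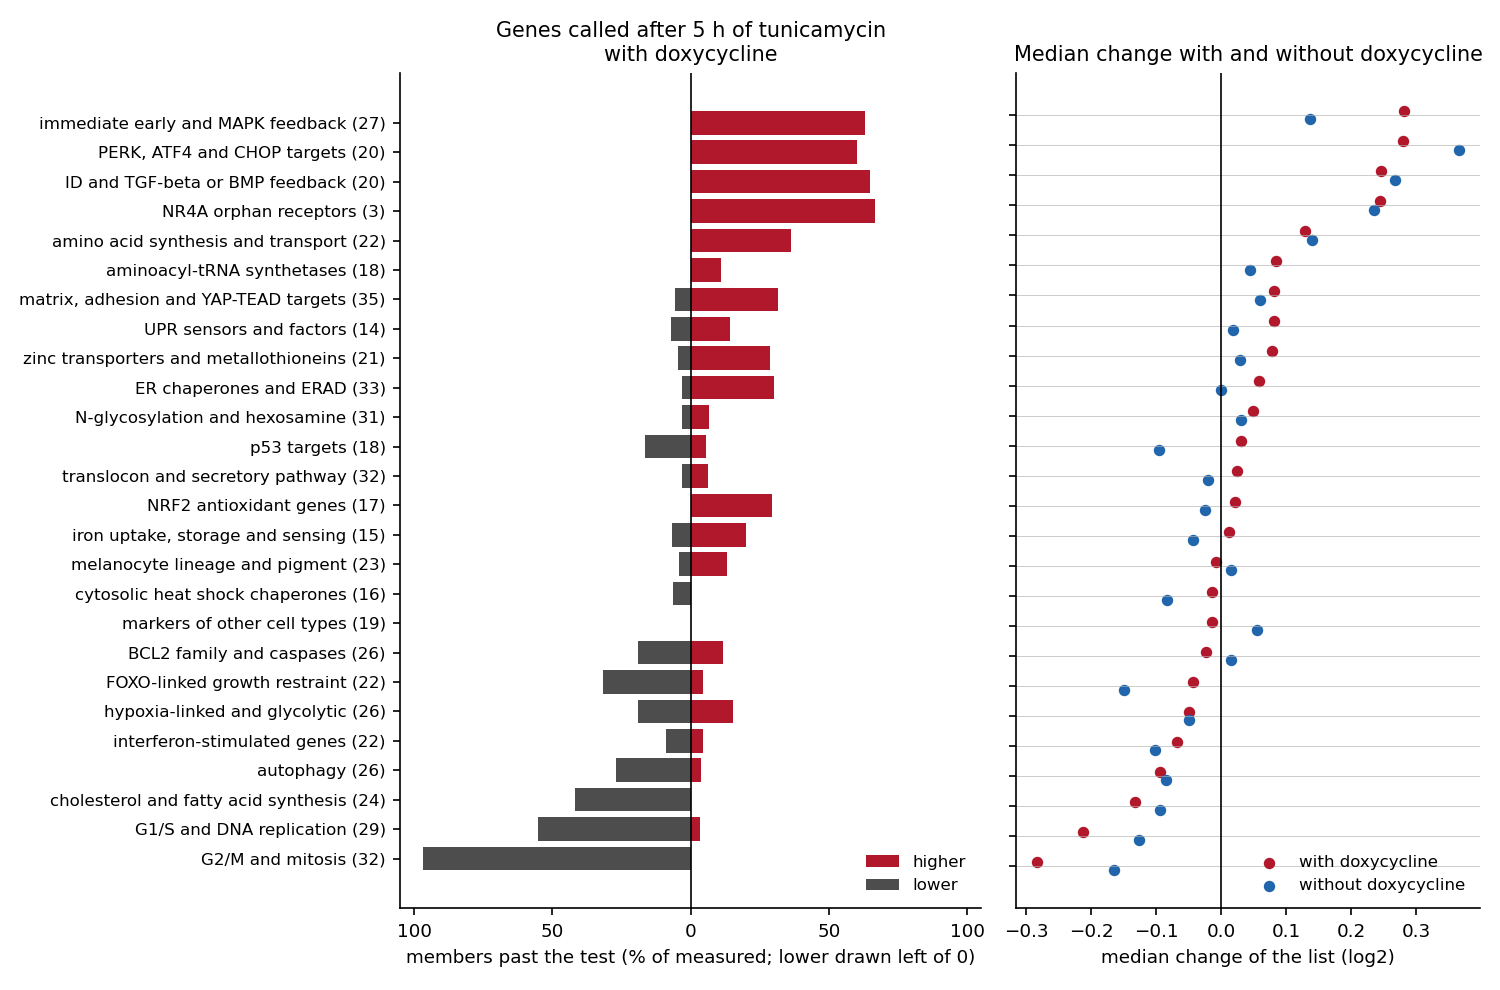
Gene lists in LIP-expressing cells after 5 h of tunicamycin, with the number of measured members in brackets. Bars (left) give the percentage of members past limma's test, higher to the right in red and lower to the left in grey; points (right) give each list's median change (log2) with doxycycline (red) and without it (blue). G2/M and mitosis stands lowest, with 31 of 32 members lower and medians of -0.28 with doxycycline and -0.17 without.

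Smaller lists held single changes of some size. Of 17 NRF2 antioxidant genes, 5 rose and 0 fell, and 2 or 3 rose with 1 experiment left out. Gclm, the modifier subunit of the enzyme that limits glutathione synthesis, rose by 0.54 ± 0.051 (adjusted p = 1.08e-06), Osgin1 by 0.41, Srxn1 (sulfiredoxin) by 0.26 and Me1 (malic enzyme) by 0.19. Of 15 iron genes 3 rose (20%, against 6.54% of all genes) and 1 fell (6.67%, against 5.56%). Only 1 rose with array medians set equal, without any 1 of the doxycycline arrays or without experiment 1 or 2, and 0 rose without experiment 3. The fall was that of Slc40a1, the iron exporter ferroportin, with 6.51, 6.17 and 6.16 with tunicamycin, against 7.07, 7.02 and 7.16 without, a change of -0.80 ± 0.092 (adjusted p = 1.06e-05). The level with tunicamycin was near the silent-gene mark of 6.07. Of 26 hypoxia-linked and glycolytic genes 4 rose (15.4%, against 6.54% of all genes) and 5 fell (19.2%, against 5.56%). The rises were led by the circadian repressor Bhlhe40 (0.71 ± 0.1, adjusted p = 8.52e-05) and the glycolytic activator Pfkfb3 (0.44). The falls were led by the kinase Pdk1 (-0.47), which blocks pyruvate dehydrogenase, and the MAX partner Mxi1 (-0.33). Only 2 rose without experiment 1, without either of its arrays or without the doxycycline array of experiment 2. Without experiment 3 the falling members were 1, and 3 without the doxycycline array of experiment 1 or 3 or the tunicamycin array of experiment 2 or 3.

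Of 26 BCL2 family and caspase genes, 3 rose (11.5%, against 6.54% of all genes) and 5 fell (19.2%, against 5.56%). Without experiment 1 or 3 only 1 fell, and without experiment 3 only 1 rose. Casp6, an executioner caspase, had a change of -0.47 ± 0.098 (adjusted p = 0.00298). The protective Bcl2 rose by 0.35 ± 0.079 (adjusted p = 0.00526), and the death-promoting Bid rose by 0.35 ± 0.061 (adjusted p = 0.00076). Bcl2l11, the death-promoting BIM, had a change of -0.30 (adjusted p = 0.0389), a call lost in 9 of 18 alternatives. Of 18 p53 targets 3 fell (16.7%, against 5.56% of all genes), among them Trp53inp1 (-0.55 ± 0.06, adjusted p = 5.77e-06) and Sesn1 (-0.35). The 1 that rose (5.56%, against 6.54% of all genes) was the nuclease gene Aen (0.38). Of 22 interferon-stimulated genes 2 fell (9.09%, against 5.56% of all genes) and 1 rose (4.55%, against 6.54%). Those that fell were the antiviral enzyme gene Rsad2, which encodes viperin (-0.87 ± 0.092, adjusted p = 4.29e-06), and Ifit3 (-0.37). Ifit3 had 6.41, 6.31 and 6.39 with tunicamycin, against 6.72, 6.72 and 6.76 without, near the silent-gene mark of 6.07. Its call was lost in 3 of 18 alternatives. The member that rose was the chemokine gene Cxcl10 (0.27, adjusted p = 0.0365), with a call lost in 9 of 18 alternatives. In this list 1 gene fell without experiment 1 or 3 or the tunicamycin array of experiment 2.

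Of 23 melanocyte lineage genes 3 rose (13%, against 6.54% of all genes), 1 fell (4.35%, against 5.56%) and 19 did not pass. The median change was -0.008. The count of falling members was 3 with the experiment as a block, 3 without the tunicamycin array of experiment 1, 2 without the doxycycline array of experiment 2, 0 without experiment 3 and up to 5 under other settings. Mlph, melanophilin, which ties melanosomes to myosin, rose by 0.61 ± 0.061 (adjusted p = 2.14e-06), Mc1r, the melanocortin receptor, by 0.42 ± 0.074 (adjusted p = 0.000745), and the lineage factor Pax3 by 0.36 ± 0.047 (adjusted p = 4.2e-05). Bace2, a protease that cuts the melanosome protein PMEL, changed by -0.33 ± 0.066 (adjusted p = 0.00246). The master regulator Mitf changed by 0.061 (adjusted p = 0.677) and Sox10 by -0.0093 (adjusted p = 0.963).

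The same 5 h of tunicamycin in cells without doxycycline, compared with vehicle, shares no array with the comparison above. There 1798 genes passed (9.02%), 813 higher (4.08%) and 985 lower (4.94%), and 17 changed by at least 2-fold (0.0853%). Of the 1304 genes that rose in LIP-expressing cells, 552 also rose without doxycycline, which is 42.3% of the first set and 67.9% of the second. Of the 1109 that fell, 585 also fell without it, 52.8% of the first set and 59.4% of the second. Only 2 of the 1139 genes called in both went in opposite directions. Across genes the changes with and without doxycycline correlated at r = 0.642, a description over 19938 genes, which are not independent replicates. The medians over all genes were -0.0072 with doxycycline and 0.018 without.

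The interaction term, which tests whether the change with doxycycline differs from that without, passed for 6 genes (0.0301%), all with the higher change under doxycycline. At an unadjusted p under 0.05 the interaction held 1651 genes (8.28%). The 6 were Cav1, Pwwp3b, Osgin2, Socs2, Rnd3 and Tagln. Cav1, the main protein of caveolae, had 8.90, 8.88 and 8.74 with doxycycline and tunicamycin, against 7.74, 7.69 and 7.72 with doxycycline alone. Without doxycycline it had 8.57, 8.31 and 8.44 with tunicamycin, against 8.14, 8.07 and 8.12 with vehicle. The rise was 1.12 ± 0.077 with doxycycline and 0.33 ± 0.077 without, a difference of 0.79 ± 0.11 (adjusted p = 0.0197), and the doxycycline arrays began below the vehicle arrays. Rnd3 had 9.89, 9.88 and 9.80 with doxycycline and tunicamycin, against 9.14, 9.17 and 9.18 with doxycycline alone. Without doxycycline it had 9.31, 9.07 and 9.11 with tunicamycin, against 9.09, 9.00 and 9.06 with vehicle. Its change was 0.69 with doxycycline and 0.11 without, a difference of 0.58 ± 0.09 (adjusted p = 0.0212), so that the doxycycline and tunicamycin arrays stood above the 9 other arrays of these groups.

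Tagln, the actin-binding protein SM22, changed by 0.69 with doxycycline and 0.17 without, a difference of 0.52 ± 0.08 (adjusted p = 0.0212). Socs2, a feedback inhibitor of cytokine and growth hormone signalling, changed by 1.17 and 0.47, a difference of 0.69 ± 0.11 (adjusted p = 0.0334). With the experiment as a block the adjusted p of this difference was 0.0543, which does not pass. Averaging the probe sets of Socs2 in place of taking the brightest gave a difference of 0.40 (adjusted p = 0.136). Osgin2 changed by 0.78 and 0.083, a difference of 0.69 ± 0.11 (adjusted p = 0.0288). Pwwp3b rose with doxycycline (0.45 ± 0.078) and fell without it (-0.27 ± 0.078, adjusted p = 0.0344), a difference of 0.73 ± 0.11 (adjusted p = 0.0212). Each of the 6 interaction calls was lost in at least 10 of the 15 settings that left out 1 array or 1 experiment, while the differences kept most of their size: 0.72 to 0.86 for Cav1, 0.66 to 0.80 for Pwwp3b, 0.60 to 0.82 for Osgin2, 0.62 to 0.76 for Socs2, 0.54 to 0.65 for Rnd3 and 0.47 to 0.59 for Tagln.

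**Figure D3:**
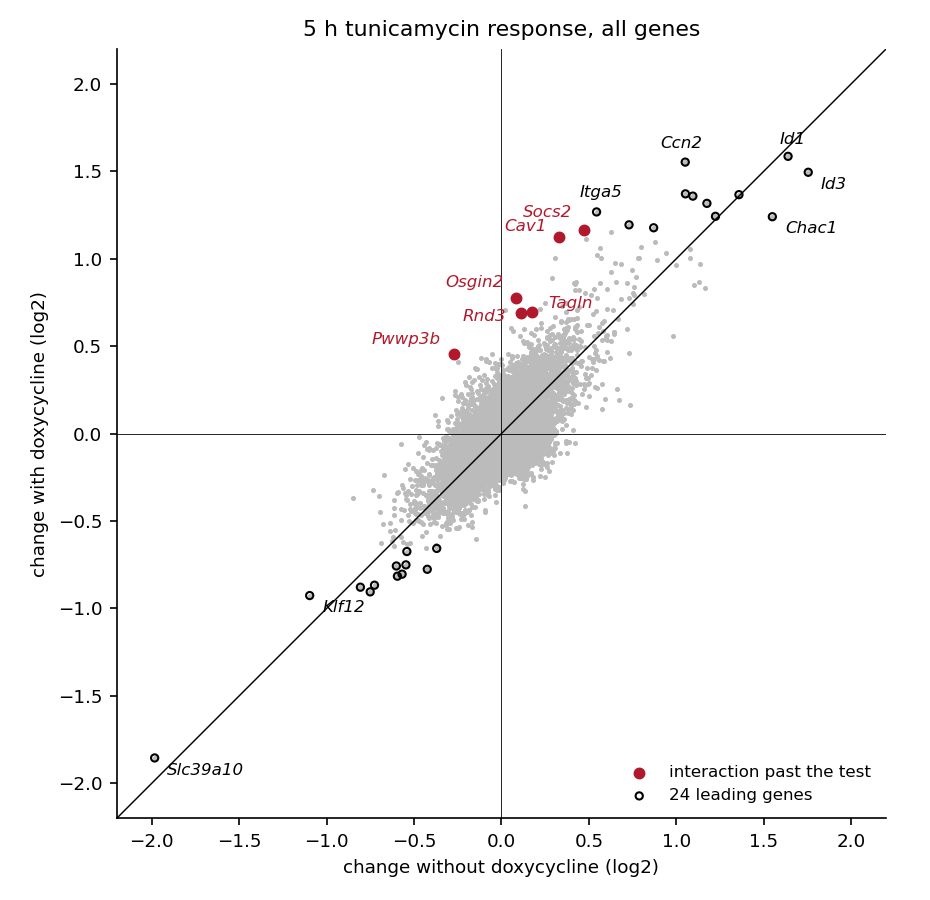
Change after 5 h of tunicamycin with doxycycline (vertical axis, log2) against the change without doxycycline (horizontal axis, log2) for 19938 genes (grey points), with the line of equal change. Open circles are the 24 genes of the largest rises and falls, and red points are the 6 genes whose interaction passed the test, which all lie above the line.

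No member of the lists above passed the interaction test, so the values that follow are side by side and no difference is claimed. In the PERK list 12 of 20 genes rose with doxycycline and 12 without, with medians of 0.28 and 0.37. Chac1 rose by 1.24 with doxycycline and 1.55 without, and Trib3 by 0.83 and 1.17. Ddit3 rose by 1.32 with doxycycline and 1.17 without. In the ER chaperone and ERAD list 10 genes rose and 1 fell with doxycycline, and 3 rose and 0 fell without, with medians of 0.058 and -0.001. Xbp1 changed by 0.52 with doxycycline and 0.13 without (adjusted p of the difference 0.155). Its level after 5 h of tunicamycin was 11.53 on average with doxycycline and 11.54 without, while the start differed: 11.01 with doxycycline alone and 11.41 with vehicle. Over that list the median difference between doxycycline and vehicle was -0.16 before tunicamycin, and the median difference between tunicamycin with and without doxycycline was -0.054 after 5 h.

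In the mitotic list 31 of 32 genes fell with doxycycline and 17 without, with medians of -0.28 and -0.17. The change was lower with doxycycline than without in 31 of the 32, against 54.4% of all genes. These 32 genes were chosen with results of the same arrays known. They were read on the same arrays and are not independent replicates. The count is only a description, and no difference is claimed from it. In the immediate early list 17 genes rose and 0 fell with doxycycline, and 8 rose and 1 fell without, with medians of 0.28 and 0.14. In the BMP and TGF-β feedback list 13 rose and 0 fell with doxycycline, and 11 rose and 1 fell without. Id1 rose by 1.59 with doxycycline and 1.64 without, Id3 by 1.49 and 1.75, Slc30a1 by 1.37 and 1.36, and Slc39a10 changed by -1.85 and -1.98.

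**Figure D4:**
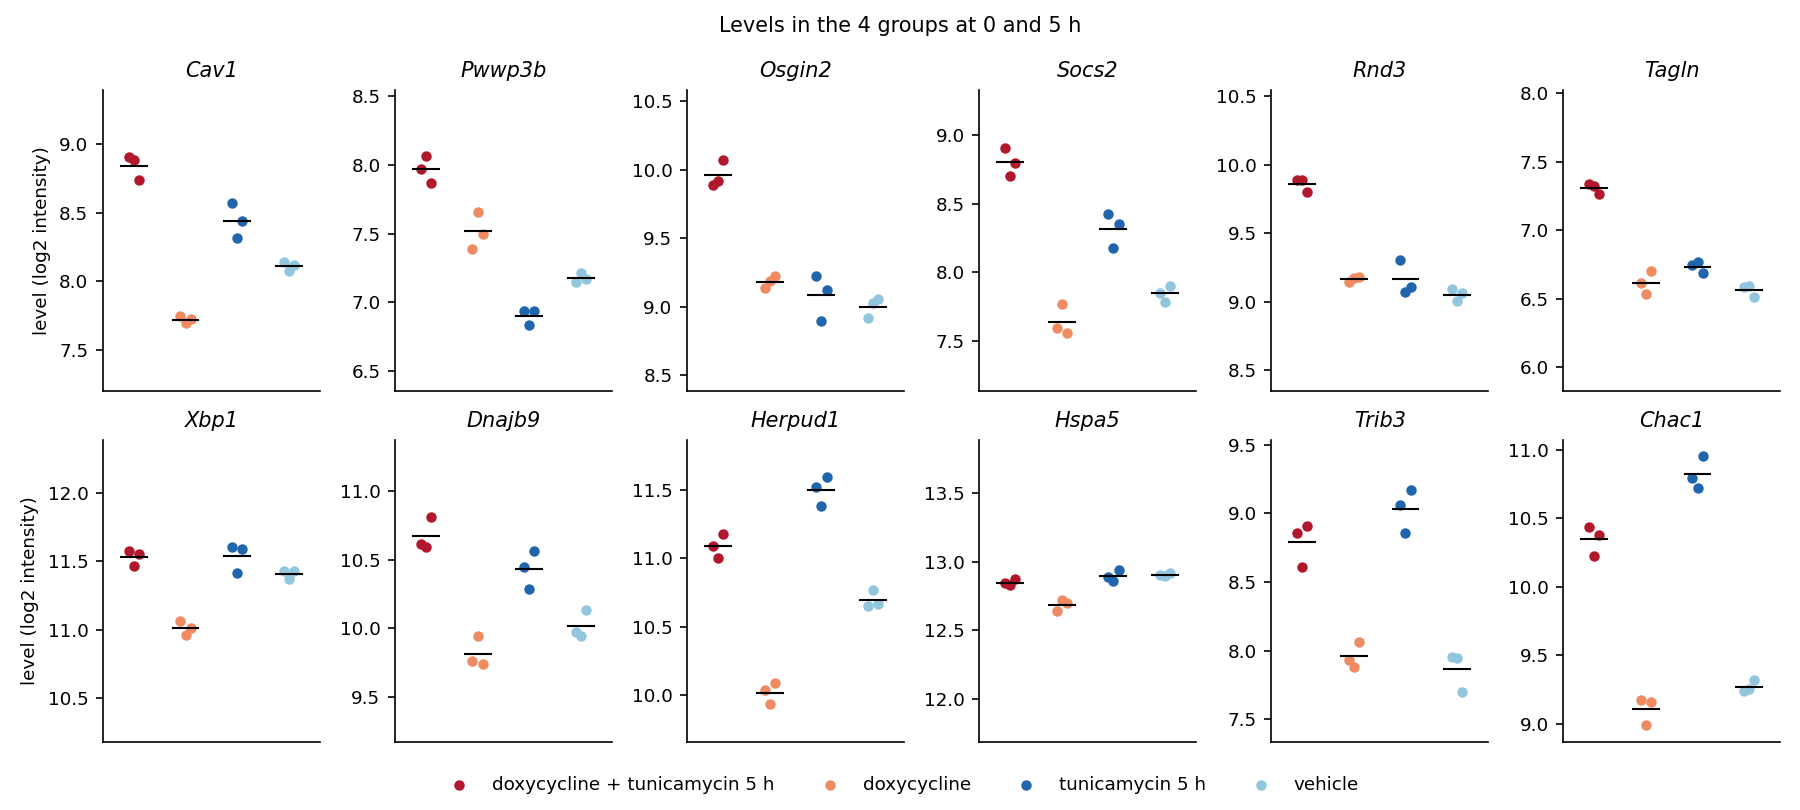
Levels (log2 intensity, vertical axes with a different start in each panel) of the 6 interaction genes (top) and of 6 stress genes (bottom) in 4 groups of 3 arrays, from left to right doxycycline with tunicamycin for 5 h, doxycycline, tunicamycin for 5 h, and vehicle. Points are arrays and bars are means; Rnd3 stands apart in the first group (9.86 on average, against 9.17 with doxycycline alone), while Xbp1 is lowest with doxycycline alone.

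Arrays of LIP-expressing cells at 12 h place the 5 h values in time. The change between 5 and 12 h uses the same 5 h arrays as the comparison above, so values are only set side by side. Between 5 and 12 h, 5246 genes passed (26.3%), 2167 higher (10.9%) and 3079 lower (15.4%), and 163 changed by at least 2-fold (0.818%). Some genes that rose by 5 h fell afterwards. Id1 changed by 1.59 by 5 h and by -1.17 between 5 and 12 h, Ccn2 by 1.55 and then -1.53, and Spry4 by 0.83 and then -1.09. Among the 27 immediate early genes and MAPK inhibitors 16 were lower and 1 higher at 12 h than at 5 h, and of 20 BMP and TGF-β feedback genes 12 fell and 2 rose. Mt2 changed by -0.67 and Slc30a1 by -0.83 in that interval, while Slc39a10 rose by 0.63.

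Several stress genes that rose by 5 h rose further by 12 h. Ddit3 changed by 1.32 by 5 h and by a further 1.64 between 5 and 12 h, Trib3 by 0.83 and then 1.57, and Ppp1r15a by 0.74 and then 2.05. Of the 14 genes listed as sensors and factors 8 rose between 5 and 12 h and 2 fell. Of the 33 ER chaperone and ERAD genes 32 rose between 5 and 12 h, with a median of 0.95, and 29 of 32 translocon and secretory genes rose, with a median of 0.62. Hspa5 rose by 0.74 in that interval and Sec24d by 2.24. Several genes that fell by 5 h rose afterwards: Klf12 by 1.09, Ccng2 by 1.07, Klhl24 by 0.77 and Gabarapl1 by 0.52. Of 26 autophagy genes 12 rose and 1 fell between 5 and 12 h. Of 32 mitotic genes 0 rose and 22 fell, and of 24 sterol and fatty acid genes 21 fell and 1 rose. Mc1r and Mlph, which had risen by 5 h, changed by -1.45 and -1.20.

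**Figure D5:**
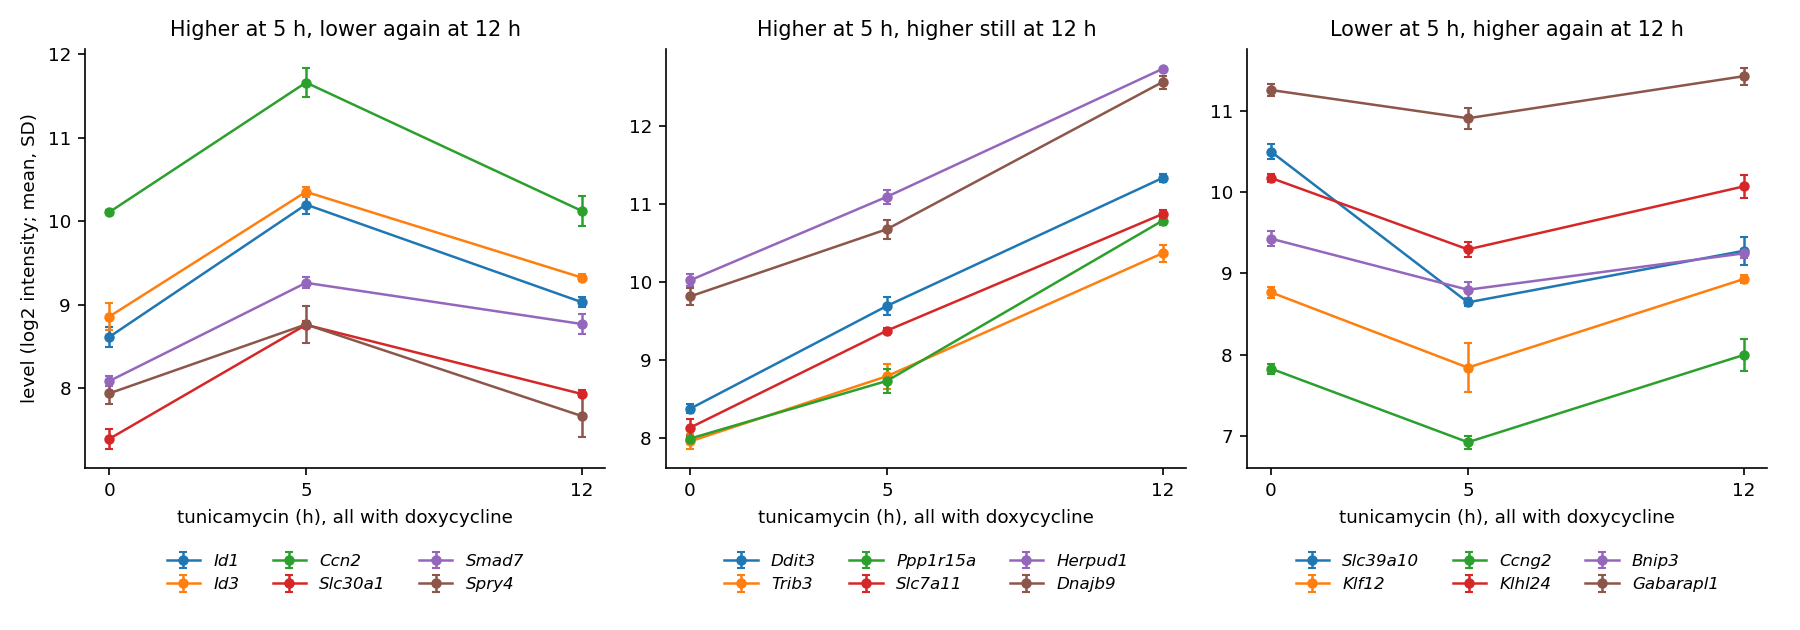
Levels (log2 intensity, mean and SD of 3 arrays) at 0, 5 and 12 h of tunicamycin, all with doxycycline, for genes that rose by 5 h and then fell (left), rose by 5 h and rose further (middle), and fell by 5 h and then rose (right). Id1 stood at 8.61, 10.20 and 9.03 at the 3 times, Ddit3 at 8.38, 9.69 and 11.33, and Ccng2 at 7.83, 6.92 and 8.00.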

How the data were processed

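Total RNA of mouse B16 F10.9-4 cells was made into cDNA with the Ambion WT Expression Kit, biotin-labelled and hybridised to 18 one-colour arrays from Affymetrix, as the labels' protocols state. The authors deposited log2 intensities of 35557 probe sets, summarised by RMA and handled in Partek per the submitters' processing notes, with no version. The genome build: not given in the sources used here. RMA understates the change of dim probe sets. All 18 columns of values were used as deposited.

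Probe sets were named through the platform's annotation: 21789 carry 1 symbol, 1621 several and 12147 none. The probe set with the highest mean was kept for each gene, which left 19938 genes, 999 of them with several probe sets. Group means were compared with limma (version 3.58.1, R 4.3.3) on all 18 arrays, with 12 residual degrees of freedom and Benjamini-Hochberg adjustment for each comparison. The procedure was tested on simulated data.

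The genes named are the 12 largest rises and 12 largest falls among genes that passed with 1 direction in the 3 experiments, without predicted, small RNA, receptor and histone genes (2902 genes). Further named are up to 4 members of each of 26 lists, up to 6 interaction genes in each direction, and markers of the stress response. Edem2, Ube2c, Ccnd1, Sqstm1, Itga2, Itgb5, Mtf1, Nr4a2, Mitf and Sox10 were named after their values were seen. The members, lists and tests were chosen with earlier results of these data known. Arrays with the same replicate number were taken as 1 experiment, since the series design gives 3 independent experiments. The titles give only the replicate numbers, so this pairing is assumed. The deviations of same-numbered doxycycline and tunicamycin arrays from their group means correlated at 0.048, 0.039 and 0.038.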

Additional observations from a re-analysis of the deposited data

Results flagged for a closer look

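The change after 5 h of tunicamycin differed with and without doxycycline, by the interaction term of the fit, in 6 genes. The difference (change with doxycycline minus change without, log2) was 0.79 for Cav1, 0.73 for Pwwp3b, 0.69 for Osgin2, 0.69 for Socs2, 0.58 for Rnd3 and 0.52 for Tagln, with limma's adjusted p between 0.0197 and 0.0334. Leaving out 1 array or 1 experiment ended the call of Cav1 in 10 of 15 such settings, of Pwwp3b, Socs2 and Tagln in 12, of Rnd3 in 13 and of Osgin2 in 14. The differences themselves ran from 0.72 to 0.86 for Cav1 in these settings, and for Socs2 the experiment as a block gave an adjusted p of 0.0543.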

How the results depend on the processing

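With the experiment as a block the counts were 2491 genes (1339 higher, 1152 lower) for tunicamycin 5 h under doxycycline, 1879 without doxycycline, 8 for the interaction and 5360 between 5 and 12 h; among the calls of single named genes the block ended only the interaction of Socs2 (adjusted p = 0.0543). Leaving out 1 array or 1 experiment gave 941 to 2616 genes under doxycycline (565 to 1432 higher, 376 to 1184 lower), 419 to 1728 without, 0 to 15 for the interaction and 3333 to 5067 between 5 and 12 h. Leaving out experiment 1 gave 1151 genes (619 higher, 532 lower), experiment 2 gave 673 lower genes, and experiment 3 gave 941 (565 higher, 376 lower). Fitting only the compared groups gave 1054 genes without doxycycline and 2 for the interaction, array weights gave 4381 and 119, and the interaction count was 15 with array medians set equal and 27 with a variance trend and robust estimation. The array of experiment 2 with tunicamycin 5 h and no doxycycline had the largest residual SD of the 12 arrays at 0 and 5 h (0.113). Leaving it out, an alternative chosen after seeing the data, gave 2616 genes under doxycycline (1432 higher, 1184 lower). This array is not part of the comparison under doxycycline and enters it only through the shared spread. Asking for at least a 2-fold change left 28 genes (27 higher, 1 lower), 17 without doxycycline, 0 for the interaction and 163 between 5 and 12 h. Repeating quantile normalization gave 1405 higher and 1421 lower genes. Of the 106 named genes that passed, 71 kept call and direction in all 18 alternatives and 0 reversed. The cause of these differences was not tested. Signal near background limits dim genes: 70.6% of genes other than the receptors lay above the receptor mark of 6.07.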

Other observations

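Because Cav1, Rnd3 and Tagln are genes of caveolae and of the actin cytoskeleton, a list of 20 contractile and caveolar genes was written after these values were seen, so its counts are a description. In LIP-expressing cells 11 of the 20 rose after 5 h of tunicamycin and 0 fell, and the median change was 0.24. Over all genes 6.54% rose. Cav1, Rnd3 and Tagln, which prompted the list, are counted among the 11. Without doxycycline 6 rose and 0 fell, with a median of 0.12, and over all genes 4.08% rose. Actg2, an actin of smooth muscle, had 9.94, 9.82 and 9.74 with doxycycline and tunicamycin, against 8.74, 8.63 and 8.79 with doxycycline alone, a rise of 1.11 ± 0.1 (adjusted p = 6.4e-07), and a change of 0.48 without doxycycline (adjusted p of the difference 0.155). Myl9, a myosin light chain, changed by 0.40 ± 0.077 (adjusted p = 0.00162) and by -0.0091 without doxycycline. Between 5 and 12 h under doxycycline 13 of the 20 fell and 0 rose, against 15.4% and 10.9% of all genes. That comparison subtracts the same 5 h arrays whose values prompted the list, so this count too is only a description.

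Probe sets that carry several gene symbols or none were tested apart: 208 of 13768 passed, 120 higher and 88 lower after 5 h of tunicamycin in LIP-expressing cells.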
